A study of Homo sapiens with 8 samples.

Results

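The entries described here are the microRNA genes of a transcriptome of Huh7 cells, a human hepatocellular carcinoma line. A gene was taken when its symbol had the form of a microRNA gene, did not end in HG (the suffix of host gene transcripts), and had a mean of at least 0.5 FPKM (fragments scaled by transcript length and by library size) over all 8 libraries. Of 17076 genes listed, 311 were microRNA entries and 159 of them reached this level, which leaves 152 below it. The members were chosen by their mean FPKM, so their levels are given as a description. Among the members nearest to the threshold were MIR3179-3, MIR4479 and MIR3179-2, at mean FPKM of 0.515, 0.511 and 0.508, and just outside it were MIR3680-1, MIR10394 and MIR6730, at 0.494, 0.491 and 0.485.

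The libraries form 4 groups of 2. Huh7 cells received a control siRNA (siControl) or a siRNA against UPF1 (siUPF1), or a plasmid with the MYC tag alone (MYC) or with MYC-tagged UPF1 (MYC-UPF1), so each treatment has its own control. UPF1 is the RNA helicase at the centre of nonsense-mediated mRNA decay. UPF1 stood at 44.5 and 47.4 FPKM in siControl and 20.7 and 21.9 in siUPF1, and at 45.1 and 57.4 in MYC against 2835 and 2484 in MYC-UPF1. By limma this came to -1.07 and 5.68 on the log2 scale, with adjusted p = 0.0308 and adjusted p = 8.91e-09. Both siUPF1 libraries were below both controls and both MYC-UPF1 libraries above theirs. All cells are from a single line, both treatments are transient transfections, and the labels do not say that the 2 libraries of a group came from separate cultures, so the p-values measure only the spread between these libraries. The liver genes ALB and AFP were listed at 6550 to 8371 and 11093 to 12505 FPKM, and of 5 markers of blood, vessel and stromal cells 2 were listed, CD68 at 2.95 to 3.84 and PECAM1 at 0.535 to 0.796.

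A microRNA is a single-stranded RNA of about the length of the sequences below, cut from a hairpin in a longer primary transcript. DROSHA with DGCR8 releases the hairpin in the nucleus, XPO5 exports it, DICER1 trims it, and an Argonaute protein takes up a strand whose bases 2 to 8, the seed, pair with target mRNAs. Many hairpins lie in introns of protein-coding genes. A mirtron is a hairpin that is itself a short intron, set free by the spliceosome without DROSHA. The libraries were made with a kit for polyadenylated mRNA, which does not collect free mature microRNAs. The values below are thus reads over the stretch of the annotated hairpin. Primary transcript, unspliced host RNA, a retained intron and, for hairpins in exons, spliced host RNA cannot be told apart in them.

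The mature sequences of the members on which the results turn are given here, from RefSeq (assembly GRCh38.p14), 5′ to 3′, with the seed in capitals. Of the 159 members, 147 had 242 mature sequences there, with 228 distinct seeds. The first set holds members described in full below, each with a seed that no other member has. Among them are the 3 largest rises and 2 largest falls after depletion, and the largest rise and largest fall after overexpression. These ranks cover members that passed the test and whose groups did not overlap.
hsa-miR-4523: gACCGAGAgggccucggcugu
hsa-miR-1281: uCGCCUCCuccucuccc
hsa-miR-6789-5p: gUAGGGGCgucccgggcgcgcggg
hsa-miR-6878-3p: cUGGCCUCuucuuucuccuag
hsa-miR-3646: aAAAUGAAaugagcccagccca
hsa-miR-4745-5p: uGAGUGGGgcucccgggacggcg
hsa-miR-6728-3p: uCUCUGCUcugcucuccccag
hsa-miR-4784: uGAGGAGAugcugggacuga
hsa-miR-122-5p: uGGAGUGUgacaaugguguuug

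The next set holds the well-known members. miR-25, miR-93 and miR-106b come from hairpins of a single intron and form a cluster tied to cell cycle control. miR-93-5p and miR-106b-5p share a seed and miR-25-3p has another. let-7d is a member of the family that LIN28 proteins hold back.
hsa-miR-93-5p: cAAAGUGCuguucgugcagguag
hsa-miR-106b-5p: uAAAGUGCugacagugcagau
hsa-miR-25-3p: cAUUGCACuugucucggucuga
hsa-let-7d-5p: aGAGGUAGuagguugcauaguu

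Shared seeds were few. In all, 12 seeds were found in more than 1 member, and they cover 24 members. The set shown next holds MIR3131, which moved in opposite ways under the treatments below and shares its seed with MIR611, and the abundant MIR3916, which shares its seed with both copies of MIR6859.
hsa-miR-3131: uCGAGGACugguggaagggccuu
hsa-miR-611: gCGAGGACcccucggggucugac
hsa-miR-3916: aAGAGGAAgaaauggcugguucucag
hsa-miR-6859-5p: gAGAGGAAcaugggcucaggaca

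The place of a hairpin in its host went with its level. On GRCh37, the build of the files, 144 of the 159 members could be located. Of these, 70 (48.6%) lay in an intron within 5 bases of a splice site, 48 (33.3%) inside an intron, 18 (12.5%) in an exon, 2 in a gene whose intron was not resolved, and 6 had no host on their strand. Among the 139 entries below the threshold that were located, 74 (53.2%) were exonic and 15 (10.8%) lay at a splice site. Put the other way, 82.4% of 85 splice-site entries were members, against 55.2% of 87 entries inside introns and 19.6% of 92 exonic entries. The median level was 1.20 FPKM at splice sites, 0.615 inside introns and 0.00594 in exons. Several exonic entries were low although the host was high. MIR1244-1 lies in the 3′ UTR of PTMA, which had a mean of 657 FPKM, and MIR3652 in the 5′ UTR of HSP90B1, at 550 FPKM, and they read 0.000255% and 9.82e-06% of their hosts. Other entries classed as exonic in high hosts were members. Examples are MIR7-1 in HNRNPK (4.16 against 222 FPKM) and MIR4449 in DANCR (1.68 against 382). MIR7-1 is classed so by a stretch annotated as 3′ UTR of HNRNPK. Whether that stretch is exon or intron in the HNRNPK transcripts read here was not tested. The 4 entries named here were picked out after their values were seen. For exonic entries the median was 0.0658% of the host's FPKM, for splice-site entries 5.01% and for entries inside introns 4.46%. How the authors' assembler divides reads between an exonic hairpin and its host was not tested.

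**Figure D1:**
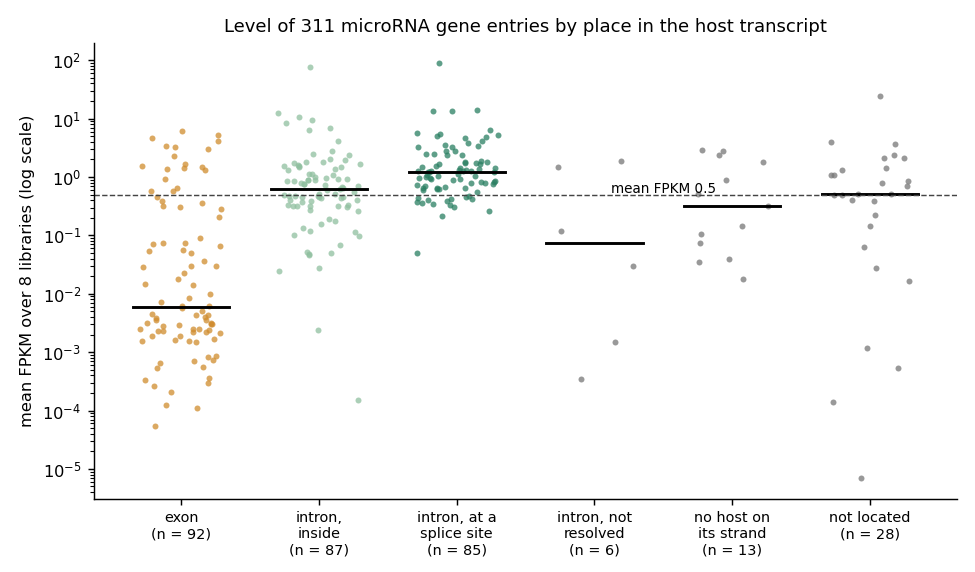
Mean FPKM over the 8 libraries (log axis) of the 311 microRNA gene entries, by where the hairpin lies, with the median as a bar and the membership threshold of 0.5 as a dashed line. Exonic entries sit mostly far below the threshold (median 0.00594), entries at a splice site mostly above it (median 1.20).

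Mirtrons were among the splice-site members, which are defined by their distance from an intron end. Of the 70, 58 ended with the last base of their intron, 13 began with its first base and 9 did both, so that hairpin and intron are the same stretch. These 9 include MIR877 in ABCF1, MIR6892 in ZYX, MIR1226 in DHX30 and MIR3620 in ARF1. In 49 of their 65 annotated 3p arms (75.4%) the last bases were AG, the end of nearly every intron, against 6 of 19 (31.6%) inside introns and 3 of 11 (27.3%) in exons. Where the hairpin ends with its intron this follows from its position, so it describes the class and adds no separate support. Their 5p arms were rich in G, 49.9% of bases against 26.1% for members inside introns, and their 3p arms rich in C and U, 70.7% against 52.3%. The pattern can be read from these members, with the final AG of the 3p arm visible beside its seed.
hsa-miR-877-3p: uCCUCUUCucccuccucccag
hsa-miR-6892-3p: uCCCUCUCccaccccuugcag
hsa-miR-6734-3p: cCCUUCCCucacucuucucucag
hsa-miR-7113-3p: cCUCCCUGcccgccucucugcag
hsa-miR-6758-3p: aCUCAUUCuccucuguccag

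Most members were low. The median over members was 1.40 FPKM, 107 reached 1, 19 reached 5 and 8 reached 10. The median member read 6.44% of its host's FPKM over the 134 with a host in the table, and across them the correlation of log2 levels of entry and host was 0.24. The hairpins run from 47 to 164 bases, with a median G+C of 61.3% over 134 members with a hairpin sequence against 49.4% over all genes. Libraries agreed less over members, with pairwise correlations of log2 levels of 0.839 to 0.936, than over all genes, with 0.987 to 0.998. The median spread between the 2 libraries of a group, as a within-group SD of log2(FPKM + 1), was 0.29 for members in the siRNA libraries against 0.09 for other genes of 0.5 to 5 FPKM, and 0.21 against 0.11 in the plasmid libraries. Depth is not given with FPKM values, so no counting error can be attached to them.

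The highest entries by far were 2 hairpins of a single intron. MIR3064 (chr17:62496892-62496957) and MIR5047 (chr17:62497332-62497431) lie in a 1236-base intron of DDX5, a helicase that is itself a partner of DROSHA. MIR3064 stood at 94.4 and 100.1 FPKM in siControl, 98.2 and 93.9 in siUPF1, 76.8 and 73.8 in MYC, and 81.9 and 86.5 in MYC-UPF1. MIR5047 stood at 66.7, 77.2, 77.2 and 99.6 in the siRNA libraries and 70.6, 72.0, 69.1 and 75.9 in the plasmid libraries. Both were of the order of their host, which stood at 112 to 138 FPKM, and neither passed the test after depletion or overexpression (log2 fold changes -0.02 and 0.29, then 0.16 and 0.02).

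Next in level was MIR663A, with a mean of 24.0 FPKM that rests on 3 libraries. It stood at 62.7 and 6.64 in siControl, 28.6 and 74.4 in siUPF1, and 2.91 to 6.30 in the 4 plasmid libraries. The 2 siControl libraries differ by more than the group means, and depletion gave no call (log2 fold change 1.10 ± 0.90, standard error, limma adjusted p = 0.490). The hairpin could not be located here.

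MIR7113 and MIR4691 share the host NDUFS8, a subunit of respiratory complex I, at means of 13.8 and 6.48 FPKM. MIR7113 rose after depletion, from 9.62 and 10.7 to 13.0 and 16.8 FPKM (log2 fold change 0.50, limma adjusted p = 0.122, and 0.33 without the second siUPF1 library), while MIR4691 overlapped between groups (-0.05). The others of the 10 highest were MIR6758 (13.7 FPKM, in MARS1, methionyl-tRNA synthetase), MIR6859-1 (13.6, in the pseudogene WASH7P), MIR25 (12.5, in MCM7, a subunit of the replicative helicase), MIR3916 (10.5), MIR570 (9.45) and MIR4292 (8.46, in RABL6). MIR4292 rose from 5.94 and 5.83 to 7.12 and 8.27 FPKM after depletion (log2 fold change 0.33). MIR6859-1 and MIR6859-4 have identical hairpins in different WASH pseudogenes, and MIR3179-2 and MIR3179-3 an identical mature sequence, so how reads were split between the copies is uncertain.

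Read level did not stop at that of the host everywhere. In all, 7 members exceeded their host's mean FPKM, among them MIR6840 in an exon of the immune receptor gene PILRB (4.59 against 2.53 FPKM), MIR4712 in GABPB1-AS1 (3.30 against 2.34), MIR3682 inside an intron of ASB3 (7.02 against 6.02) and MIR421 in FTX, a non-coding gene of the X inactivation centre (0.646 against 0.398). These were picked out after their values were seen. A hairpin is shorter than a transcript, so FPKM of entry and host divide by very different lengths.

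In the MCM7 intron the hairpins were not read alike. MIR25, MIR93 and MIR106B lie at chr7:99691183-99691697 in a 771-base intron of that gene, whose mean was 190 FPKM. MIR25 stood at 10.8 to 14.7 FPKM over the 8 libraries, MIR93 at 0.647 to 1.66 and MIR106B at 0.599 to 1.07. MIR25 was above both of its neighbours in every library. Of 57 well-known microRNAs looked for, 13 had an entry and 5 were members, namely these 3 with MIRLET7D and MIR122. The other entries were below the threshold, and the remaining microRNAs looked for had no entry. MIR192, a liver microRNA, was listed at a mean of 0.00618, and MIR22 at 0.000544 while the host transcript MIR22HG had 7.81 to 11.5 FPKM.

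After depletion of UPF1, the largest rises were those of MIR4523, MIR1281 and MIR6789, and the largest falls those of MIR3646 and MIR4745. This ranking covers members with an unadjusted limma p under 0.05 and groups that did not overlap, which leaves out MIR663A. Of the 153 members tested 109 had a positive log2 fold change, as did 8247 of all 13535 genes tested, and the medians were 0.22 and 0.06. By limma with an unadjusted p under 0.05, the threshold of the study, 28 members rose and 8 fell, 36 in all or 23.5%. Over all genes tested 2908 (21.5%) were called, 16.0% as rises and 5.51% as falls, so the share of members called was near the background. Of the 28 rises 6 reached a mean of 0.5 FPKM only in siUPF1, MIR4523 and MIR6858 among them. Of the 8 falls 2, MIR6808 and MIR6832, reached it only in siControl. All of these entered the test through the group in which they were high. Both siUPF1 libraries lay above both controls for 40 members (26.1%, background 37.5%) and below both for 10 (6.54%, background 18.5%). After Benjamini-Hochberg adjustment over all genes 0 members were called in limma, where 0.0369% of all genes passed. This compares with 36 members at an unadjusted p under 0.05 (background 21.5%). Under an adjusted threshold of 0.1 there were 11 of 153 members and 507 of 13535 genes. An exact permutation test of 2 against 2 libraries cannot go below p = 0.333.

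The split of calls depended on scaling, and the size of the changes on single libraries. With quantile normalization 17 members rose and 10 fell, and over all genes 1417 rose and 1408 fell in place of 2162 and 746. With a trend on G+C content and length removed from each library, 13 rose and 11 fell of 140 members that could be fitted, with a median log2 fold change of 0.06. Over all genes 1365 rose and 1401 fell of 12900 in that fit. The members that rose had a median hairpin G+C of 66.7% and those that fell 43.4%, and over 130 members the correlation of hairpin G+C with the log2 fold change was 0.27. The second siUPF1 library was the highest of the 4 for 81 members. Without it the median log2 fold change was 0.08 over members and 0.06 over all genes. Without the first siUPF1 library these medians were 0.31 and 0.05. They were 0.22 and 0.04 without the first siControl library, and 0.21 and 0.07 without the second.

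MIR4523 had the largest rise. Its hairpin lies in the 5′ UTR of TAOK1, a kinase of the Hippo and MAP kinase pathways, at chr17:27717680-27717748, with another annotated gene on the opposite strand. MIR4523 stood at 0.480 and 0.0994 FPKM in siControl and at 1.41 and 3.19 in siUPF1. Its log2 fold change was 1.32 ± 0.26 (standard error, n = 2 per group, limma adjusted p = 0.0821). Its host did not move with it, at 10.7 and 10.1 FPKM in siControl and 10.5 and 8.87 in siUPF1 (log2 fold change -0.10). In the plasmid controls MIR4523 was already at 1.84 and 2.1 FPKM, above either siControl library.

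MIR1281 was likewise lowest in siControl. The hairpin has no host on its strand and lies 26 bases from EP300, a histone acetyltransferase gene, at chr22:41488517-41488570. It stood at 1.03 and 0.352 FPKM in siControl, 1.83 and 3.74 in siUPF1, 2.99 and 3.56 in MYC, and 2.63 and 3.20 in MYC-UPF1. The rise after depletion was 1.14 ± 0.27 (adjusted p = 0.101), and the siControl libraries were the lowest of all 8.

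MIR6789 rose together with its host. It lies in a coding exon of PLEKHJ1 at chr19:2235828-2235925 and stood at 2.15 and 1.54 FPKM in siControl and 3.99 and 5.71 in siUPF1, a log2 fold change of 1.03 ± 0.17 (adjusted p = 0.0686). PLEKHJ1 went from 28.9 and 31.0 to 40.5 and 54.5 FPKM (log2 fold change 0.63, adjusted p = 0.0952). MIR1227 fills an intron of the same gene and had a log2 fold change of 0.18 (adjusted p = 0.541).

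MIR6878 had the lowest p of all members. It ends at a splice site in TARS2, the mitochondrial threonyl-tRNA synthetase, at chr1:150464821-150464886. Its 4 values were 0.547 and 0.779 FPKM in siControl against 2.20 and 1.83 in siUPF1, with a log2 fold change of 0.86 ± 0.12 (adjusted p = 0.0584). TARS2 had a log2 fold change of 0.05 (adjusted p = 0.794).

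Another 4 members completed the largest rises. MIR4664, in an intron of FAM83H, went from 1.58 and 0.710 to 2.40 and 4.29 FPKM, and MIR4653, in AP1S1, from 0.364 and 0.969 to 1.63 and 2.48. MIR7106, in DDX54, went from 0.917 and 0.439 to 1.20 and 2.81, and MIR6858, in FAM50A, from 0.255 and 0.536 to 0.633 and 3.05. Their log2 fold changes were 1.01, 0.88, 0.80 and 0.89. The rise of MIR6858 (adjusted p = 0.231) rests on the second siUPF1 library, since without it the log2 fold change was 0.23. Without the same library MIR7106 was at 0.41, still called.

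The other 20 rises had log2 fold changes of 0.31 to 0.75. Among them, named after their values were seen, were MIR6847 (0.75) and MIR6840 (0.65), MIR4750 in TBC1D17 (0.41), MIR943 in the transcription elongation gene NELFA (0.41) and MIR6727 in INTS11, the endonuclease of the Integrator complex (0.39).

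MIR3646 had the largest fall. It lies at chr20:43036760-43036843 in HNF4A, a master transcription factor of hepatocytes, in a stretch annotated as 3′ UTR in some transcript of that gene. It went from 5.15 and 6.81 FPKM in siControl to 3.64 and 2.75 in siUPF1 (log2 fold change -0.73 ± 0.15, adjusted p = 0.0835), and from 3.28 and 2.26 in MYC to 1.76 and 1.65 in MYC-UPF1 (-0.47 ± 0.15, and -0.27 without the first MYC library). Both treated groups were below their own controls. HNF4A itself stood at 44.1 and 43.9 FPKM in siControl and 40.6 and 44.5 in siUPF1, so the entry and its host parted. Which HNF4A transcripts were read over the hairpin was not tested.

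MIR4745 lies in an intron of PTBP1, a splicing repressor, at chr19:804940-805001. It stood at 1.33 and 1.49 FPKM in siControl and 0.557 and 0.517 in siUPF1, a log2 fold change of -0.65 ± 0.10 (adjusted p = 0.0632). PTBP1 did not follow, with a log2 fold change of 0.01. The next falls were smaller. MIR6808, in DVL1 of the Wnt pathway, went from 0.678 and 1.31 to 0.184 and 0.426, and MIR6832 from 1.04 and 0.689 to 0.321 and 0.360. MIR186 and its host ZRANB2, a zinc finger splicing factor, fell together, with log2 fold changes of -0.37 (adjusted p = 0.201) and -0.32 (adjusted p = 0.179). MIR548AR, MIR573 and MIR7110 fell by 0.36, 0.32 and 0.28 on the log2 scale. These 4 smaller falls were not called when some single libraries were left out. Without the second siUPF1 library MIR186 was at -0.18. Without the first, MIR548AR was at -0.16 and MIR573 at -0.22. Without the first siControl library MIR7110 was at -0.20. MIR6808, without the second siControl library, was at -0.37 and still called.

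**Figure D2:**
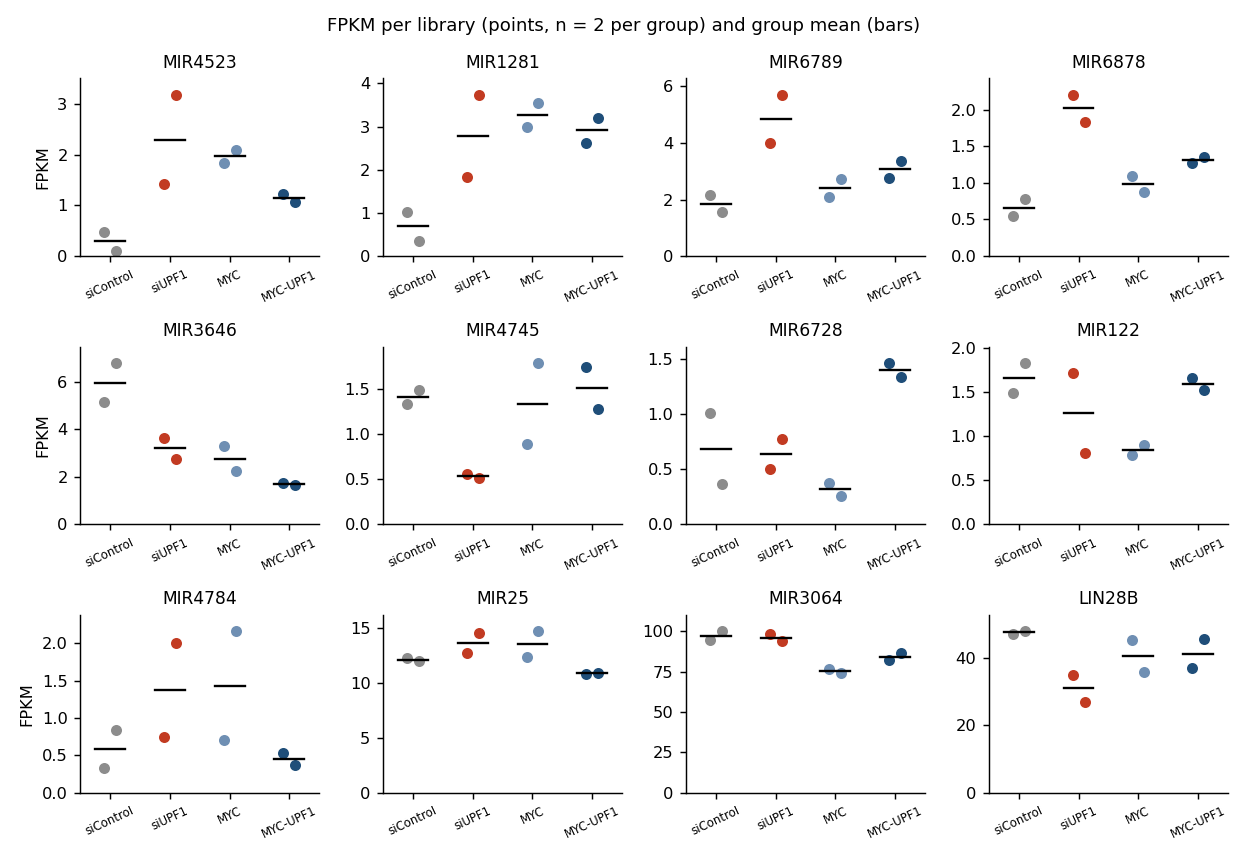
FPKM in each library (points, 2 per group, linear axes from 0) and group mean (bars) for 11 microRNA entries and LIN28B. MIR4523 and MIR1281 are lowest in siControl, MIR4745 is lowest in siUPF1, and MIR6728 is highest in MYC-UPF1.

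Overexpression of UPF1 gave the reverse balance, with most calls as falls. Of 154 members tested 54 had a positive log2 fold change, and the median was -0.11 against -0.01 over 13251 genes. At an unadjusted p under 0.05, 6 rose and 27 fell, 33 in all or 21.4%. Of the rises 2, MIR6728 and MIR877, reached a mean of 0.5 FPKM only in MYC-UPF1. Of the falls 5, MIR4784, MIR12128 and MIR6892 among them, reached it only in MYC. These too entered the test through the group in which they were high. Over all genes tested 189 (1.43%) were called, 0.619% as rises and 0.807% as falls, and among 5512 other genes of 0.5 to 5 FPKM 113 (2.05%). The limma fit shares variance across all genes, so standard errors of members lean on genes with less spread. The median within-group SD was 0.21 for members against 0.11 for these other genes. Whether the higher share of members called goes beyond this wider spread was not tested. Counted without any test, both MYC-UPF1 libraries lay below both MYC libraries for 36 members (23.4%, background 11.8%) and above both for 12 (7.79%, background 8.88%). After adjustment over all genes 0 members were called in limma, where 0.00755% of all genes passed. This compares with 33 members at an unadjusted p under 0.05 (background 1.43%). The lowest adjusted value was that of MIR6728, and that of the next member was 0.571.

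The second MYC library was the highest of the 4 for 75 members. Without it 78 of 154 members had a positive log2 fold change and the median was 0.01, against 0.002 over all genes. The downward balance thus rests in large part on that library. Without the first MYC library the median was -0.22 over members and -0.03 over all genes. Without the first or the second MYC-UPF1 library it was -0.10 over members each time, and -0.003 or -0.03 over all genes. With the G+C and length trend removed, 16 members rose and 20 fell of 140, beside 218 and 165 of 12654 genes. The correlation of hairpin G+C with the log2 fold change was -0.08 over 129 members.

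MIR6728 was the clearest rise. It ends at a splice site in ENO1, the glycolytic enzyme enolase, at chr1:8926561-8926649. MIR6728 stood at 0.371 and 0.261 FPKM in MYC and 1.46 and 1.34 in MYC-UPF1, a rise of 0.87 ± 0.10 on the log2 scale (limma adjusted p = 0.0557). Its host, at 878 and 879 FPKM in MYC and 842 and 818 in MYC-UPF1, was a little lower (log2 fold change -0.08, not called). In the siRNA libraries the entry overlapped between groups, at 1.01 and 0.362 in siControl and 0.501 and 0.771 in siUPF1.

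MIR122, the liver's own microRNA, also rose. Its hairpin lies in an exon of the non-coding MIR122HG (chr18:56118306-56118390), which is not analysed here. It stood at 0.784 and 0.902 FPKM in MYC and 1.66 and 1.53 in MYC-UPF1, a log2 fold change of 0.49 ± 0.11 (adjusted p = 0.935). In siControl it was at 1.49 and 1.83, the level of the MYC-UPF1 libraries, and in siUPF1 at 1.72 and 0.814 (log2 fold change -0.26, adjusted p = 0.442). The difference between the treatments was -0.75 (adjusted p = 0.212).

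The 4 other rises were MIR5010 in ATP6V0A1, a subunit of the vacuolar proton pump (1.37 and 1.23 to 1.91 and 3.07 FPKM), MIR573 in DHX15 (1.41 and 0.982 to 1.47 and 3.04), MIR3145 in NHSL1 (0.737 and 0.774 to 1.41 and 1.01) and MIR877 in ABCF1 (0.454 and 0.294 to 0.514 and 0.835). Their log2 fold changes were 0.58, 0.53, 0.33 and 0.28. Each was smaller without 1 library. Without the second MYC-UPF1 library MIR5010 was at 0.34, still called, and MIR573 and MIR877 were at 0.18 and 0.14, not called. Without the first MYC-UPF1 library MIR3145 was at 0.19, not called.

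Among falls the largest was that of MIR4784, inside an intron of MZT2A, a component of the microtubule-nucleating complex, at chr2:132248733-132248809. It went from 0.702 and 2.16 FPKM in MYC to 0.535 and 0.372 in MYC-UPF1 (log2 fold change -0.68 ± 0.23). The entry reached a mean of 0.5 FPKM only in MYC, and the second MYC library carries the fall. Without that library the log2 fold change was -0.23. MIR6832 fell by 0.68 on the log2 scale, from 1.19 and 1.74 to 0.631 and 0.439, and MIR12128, deep in a 185655-base intron of GSE1, by 0.61, from 0.466 and 1.26 to 0.222 and 0.169. Without the second MYC library MIR12128 was at -0.30, still called. MIR6832 was among the largest falls of both treatments.

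MIR6892, which fills an intron of the focal adhesion gene ZYX, went from 0.987 and 0.549 to 0.317 and 0.157 FPKM. MIR6848 went from 2.41 and 2.99 to 1.40 and 1.86, MIR6734 in the fatty acid elongase gene ELOVL1 from 1.99 and 2.48 to 1.49 and 1.12, and MIR3605 in PHC2 of the Polycomb complex from 1.24 and 1.38 to 0.530 and 0.791. MIR663A fell by 0.51 on the log2 scale, from 6.30 and 5.69 to 5.15 and 2.91, and without the second MYC-UPF1 library it was at -0.18 and not called. Without the first MYC library MIR6892 was at -0.33, still called. In each of these 5 both treated libraries were below both controls.

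The other 19 falls had log2 fold changes of -0.47 to -0.27. They include, named after their values were seen, MIR4449 in an exon of the non-coding DANCR (-0.45), MIR637 in DAPK3 (-0.44), MIR636 in the splicing factor gene SRSF2 (-0.42) and MIR6890 in QARS1, glutaminyl-tRNA synthetase (-0.33).

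MIR25 fell from 12.3 and 14.7 to 10.8 and 10.9 FPKM (log2 fold change -0.29 ± 0.12). Without the second MYC library it was -0.17 and not called. Without either MYC-UPF1 library it stayed at -0.28 and -0.30 but did not pass the threshold. Its neighbours in MCM7 did not pass, with 0.04 for MIR93 and -0.06 for MIR106B, nor did MCM7 itself at -0.06. MIRLET7D stood at 2.26 and 1.21 FPKM in MYC and 1.40 and 3.50 in MYC-UPF1, and the groups overlapped.

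**Figure D3:**
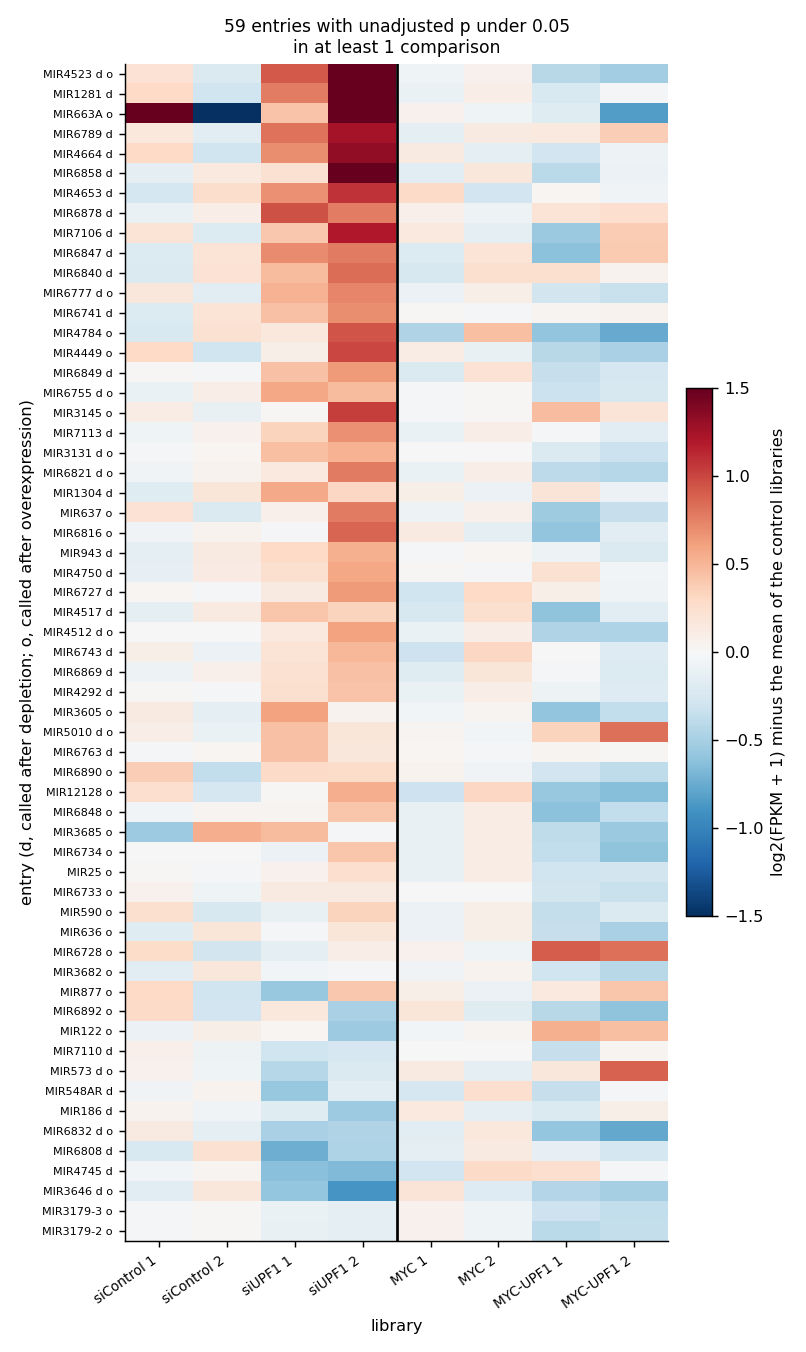
Heat map of the 59 members with an unadjusted limma p under 0.05 in at least 1 comparison, as log2(FPKM + 1) minus the mean of the control libraries of the same comparison (colour, capped at 1.5 either way), ordered by the log2 fold change after depletion. The second siUPF1 column is darker than the first for many rises, and MIR663A differs as much between the 2 siControl libraries as between groups.

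Both treatments called 10 of the 148 members tested in both (6.76%), where 51 of 13105 genes (0.389%) were called in both. The shares called in each comparison were 23.5% and 21.4% of members against 21.5% and 1.43% of all genes. Whether 6.76% goes beyond what these shares give was not tested. Of the 10, 7 went in opposite directions, as did 31 of the 51 genes. MIR4523, MIR6777, MIR6755, MIR3131, MIR6821 and MIR4512 rose after depletion and fell after overexpression, and MIR573 did the reverse. MIR5010 rose in both, and MIR3646 and MIR6832 fell in both. The comparisons share no library. MIR6777, MIR6755, MIR3131, MIR6821 and MIR4512 were picked out for this after their values were seen. The rises of MIR4512 and MIR6821 after depletion, 0.38 and 0.46, were 0.15 and 0.14 without the second siUPF1 library.

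Tested directly, the difference between the treatments gave 34 members higher after depletion than after overexpression and 4 lower, 38 of 159 or 23.9%, against 15.2% of 13412 genes tested (11.8% higher and 3.40% lower). With quantile normalization the numbers were 26 and 5, beside 1024 and 907 of all genes. With the G+C and length trend removed they were 17 and 8 of 145 members, beside 945 and 1004 of 12800 genes. The median difference over members was 0.30, and 0.39 without the first siUPF1 library. With adjustment over all genes 0 members passed in limma, where 0.0224% of all genes did. This compares with 38 members at an unadjusted p under 0.05 (background 15.2%). The lowest adjusted value was 0.104. Here too, whether the share of members called goes beyond their wider spread was not tested.

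MIR3131 is an example with little spread. Inside an intron of IHH, the Indian hedgehog gene, it stood at 0.980 and 1.07 FPKM in siControl and 1.77 and 1.91 in siUPF1, and at 1.98 and 2.00 in MYC and 1.56 and 1.40 in MYC-UPF1 (difference 0.76, adjusted p = 0.104). MIR6777, at a splice site of the lipid regulator SREBF1, went from 2.53 and 1.79 to 3.48 and 4.19 and from 3.73 and 4.34 to 3.16 and 2.97. MIR6755, in the 3′ UTR of the Polycomb gene EED, went from 0.953 and 1.26 to 2.15 and 1.91 and from 1.77 and 1.85 to 1.26 and 1.38. In all 3 both MYC libraries stood above both siControl libraries.

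**Figure D4:**
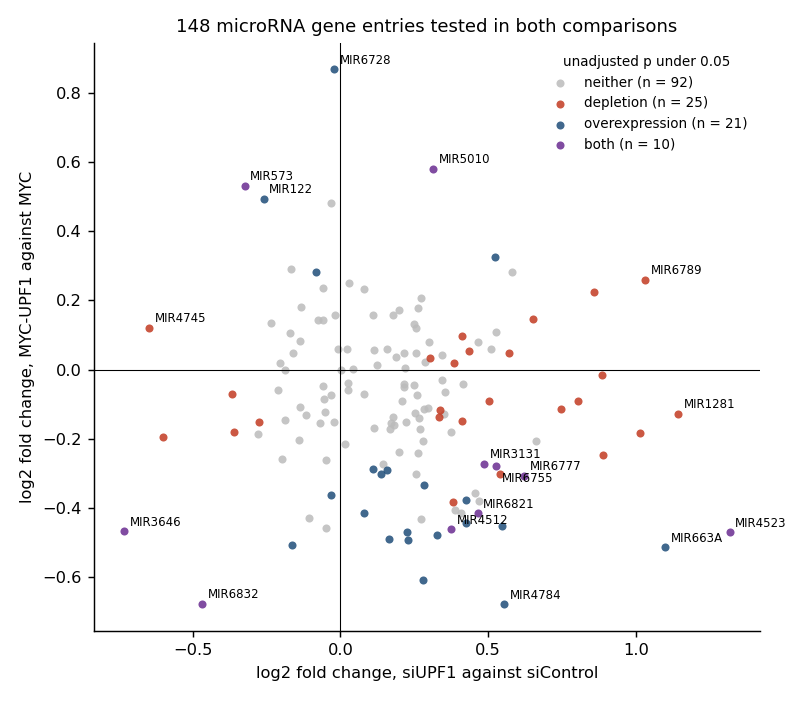
Log2 fold change after depletion (x axis) and after overexpression (y axis) of the 148 members tested in both, coloured by which comparison had an unadjusted limma p under 0.05. MIR4523 lies farthest right, at 1.32 and -0.47, and MIR6728 highest, at -0.02 and 0.87.

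Members and hosts moved together only loosely. After depletion the correlation of the log2 fold changes was 0.27 over 130 members with a tested host, 0.50 over 45 members inside introns, 0.15 over 69 at splice sites and 0.27 over 14 in exons. After overexpression it was 0.16 over 128. The hosts called in the same direction as their member were those of MIR6789, MIR4664, MIR6858, MIR186, MIR5010 and MIR6743, the last in an exon of RIC8A (log2 fold changes 0.35 for MIR6743 and 0.33 for RIC8A). These points share libraries and, for 13 members on 6 hosts, the host. Of 31 members called after depletion that have a tested host, 25 had a host of the same sign. For 6 the host was itself called, all 6 in the same direction, which is near the 21.5% of all genes called. Over all genes 8247 of 13535 had a positive log2 fold change after depletion. The called members had a median absolute log2 fold change of 0.46 and their hosts 0.13. After overexpression 20 of 26 had the same sign, where 5714 of all 13251 genes had a positive log2 fold change. Of the 26 hosts 0 passed at an unadjusted p under 0.05 in limma (background 1.43%). The 123 distinct hosts tested after depletion had a median log2 fold change of 0.11, and 22 rose and 2 fell, where 16.0% and 5.51% of all genes did.

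**Figure D5:**
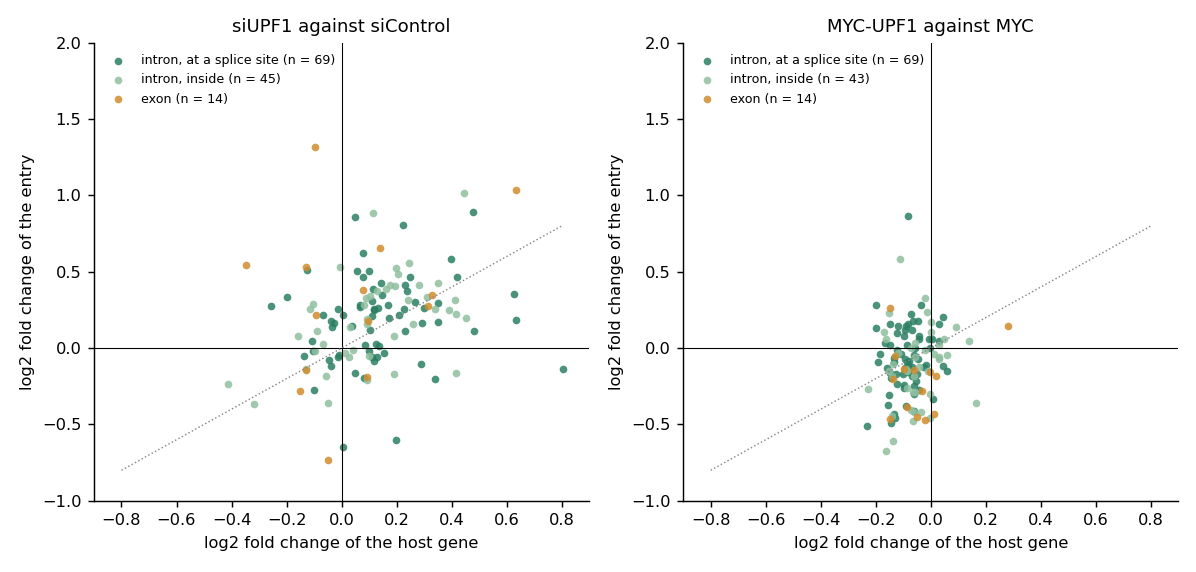
Log2 fold change of each member (y axis) against that of its host gene (x axis), after depletion (left) and overexpression (right), coloured by place, with equal change as a dotted line. Hosts spread from -0.41 to 0.80 after depletion and from -0.23 to 0.28 after overexpression, less than the entries in each panel.

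The remaining pairs on a single host gave no call. In KDM5C, a histone demethylase gene, MIR6894 stood at 2.38 to 7.04 FPKM and MIR6895 at 0.676 to 1.21 over the 8 libraries, with log2 fold changes of 0.30 and 0.17 after depletion beside 0.35 for the host. In UCKL1, MIR1914 and MIR647 had -0.14 and -0.14 beside -0.13 for the host.

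By place, the exonic members had 6 rises and 1 fall of 17 after depletion (41.2%), against 10 and 3 of 69 at splice sites (18.8%) and 7 and 2 of 47 inside introns (19.1%), where 21.5% of all genes were called. After overexpression the exonic members had 1 rise and 4 falls of 17, splice-site members 2 and 7 of 69, and members inside introns 2 and 10 of 45, where 1.43% of all genes were called. The difference between places was not tested. In none of the shared seeds were several members called after depletion. After overexpression MIR3179-2 and MIR3179-3 were both called (log2 fold changes -0.38 and -0.34), and they are copies with the same mature sequence.

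The genes that make and use microRNAs moved little. Of 33 symbols listed, older names included, 26 were in the table and tested. After depletion 2 rose and 1 fell, and after overexpression 0 passed at an unadjusted or adjusted p under 0.05 in limma. The share called after depletion, 11.5%, was below the 21.5% of all genes. Their median log2 fold change was 0.03 after depletion and -0.03 after overexpression.

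LIN28B, which binds let-7 precursors and keeps them from DICER1, was the fall. It stood at 47.4 and 48.2 FPKM in siControl and 35.1 and 27.1 in siUPF1 (log2 fold change -0.61 ± 0.13, adjusted p = 0.0848), and at 45.5 and 36.0 in MYC against 37.1 and 45.8 in MYC-UPF1 (0.03). The siUPF1 libraries were the lowest of all 8, and the plasmid groups overlapped. The difference between the treatments was -0.64 (adjusted p = 0.225). MIRLET7D, the let-7 entry among the members, had a log2 fold change of -0.17 after depletion (adjusted p = 0.529), and no value here bears on mature let-7.

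TARBP2, the partner of DICER1, rose from 27.4 and 28.2 to 34.1 and 33.4 FPKM (log2 fold change 0.27, adjusted p = 0.161), and TNRC6B, a scaffold of the silencing complex, from 2.07 and 1.92 to 2.60 and 2.76 (0.30, adjusted p = 0.159). Without the first or the second siControl library the log2 fold changes stayed near these values, at 0.25 and 0.29 for TARBP2 and 0.33 and 0.26 for TNRC6B, but no longer passed the threshold. With the G+C and length trend removed TARBP2 was at 0.09, no longer called. DROSHA (10.7 and 11.7 against 10.8 and 11.6 FPKM), DGCR8 (15.8 and 16.8 against 17.0 and 20.6), XPO5 (18.2 and 18.8 against 17.6 and 17.9) and DICER1 (3.70 and 3.77 against 3.79 and 3.31) did not pass. Among the Argonaute genes AGO1 was highest, at 12.4 to 17.1 FPKM over the 8 libraries, and AGO3 lowest, at 1.08 to 1.64. LIN28A was not listed.

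Host transcripts named after microRNAs, the 23 entries ending in HG, included 13 tested after depletion. Of these 2 rose (15.4%), near the 16.0% of all genes that did. Of 14 tested after overexpression 0 were called at either threshold in limma, where 1.43% of all genes were called without adjustment. The 2 rises after depletion were small. MIR503HG went from 1.98 and 2.68 to 2.98 and 3.32 FPKM (log2 fold change 0.33, adjusted p = 0.210) and MIR99AHG from 0.883 and 0.926 to 1.25 in both siUPF1 libraries (0.24, adjusted p = 0.215). MIR17HG, the transcript of the miR-17 to miR-92a cluster, stood at 2.83 to 5.08 FPKM over the 8 libraries, while its exonic hairpin MIR92A1 was listed at a mean of 0.00734.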

How the data were processed

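RNA-seq of 8 Huh7 libraries was made with the TruSeq Stranded mRNA kit. Per the labels and the study's methods, the authors trimmed reads (Trimmomatic 0.38), aligned them to hg19 with HISAT2 2.1.0 and assembled transcripts with StringTie 1.3.4d on NCBI annotation. The deposited values are FPKM per gene and library, and depth and counting strand are not given in the sources used here. The labels' build list also names mm10, which was not used.

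Depletion and overexpression were fitted separately, each against its matched control, with limma 3.58.1 in R 4.3.3 (log2(FPKM + 1), eBayes with a trend). A gene entered a fit when the 4 libraries averaged 0.5 FPKM or more. This kept 153 and 154 of the 159 members. Of the 153, 11 reached 0.5 only in siUPF1 and 4 only in siControl, and of the 154, 5 only in MYC-UPF1 and 8 only in MYC. A call is an unadjusted limma p under 0.05. Fold changes are on this scale and understate changes of low entries. Adjusted p-values are Benjamini-Hochberg over all genes tested. In addition, the tests were tested on simulated data whose spread was set by level over all genes, not by the wider spread of members. The difference between treatments was fitted on all 8 libraries.

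Hairpins were located on GRCh37 by exact match of the RefSeq sequence or by GENCODE 44 lifted to that build, which also gave hosts. Older symbols were listed beside newer ones for the pathway genes. Named were MIR4523, MIR6728, MIR4784 and MIR1281, the 10 highest members, up to 8 largest rises and 8 largest falls per comparison with p under 0.05 and groups that did not overlap, the 3 entries on each side of the threshold, well-known microRNAs, and hosts. The members and lists were chosen with earlier results of these data known.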

Additional observations from a re-analysis of the deposited data

How the results depend on the processing

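The count of 36 members called after depletion was 7 of 19 tested with a mean FPKM of at least 5, 55 with a replicate block on crossed numbers, and 55 to 101 with each library left out in turn. The count of 33 after overexpression was 3 of 17 at a mean FPKM of at least 5, 57 with the crossed block, and 38 to 52 with a library left out. The 38 members of the difference became 25 with the G+C and length trend removed and 26 to 62 with a library left out. With a library left out, the lone library of its group was assumed to vary like the others. The trend removal and the crossed block were chosen after seeing the data. The remaining alternatives (pseudocount 0.1, no FPKM minimum, quantile normalization, median centring, a single fit on 8 libraries, no trend) stayed within 1.5 times. The median log2 fold change of the pathway genes after depletion was 0.003 to 0.05 with a library left out.

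No label ties same-numbered libraries to a shared batch or culture, and their deviations correlated at -0.13 in the siRNA and -0.57 in the plasmid libraries over all genes. With the replicate block the member counts were 50, 36 and 49. Of these, 0, 4 and 1 passed adjustment, as did 0, 20 and 8 of all genes. Before adjustment 1979 genes rose and 607 fell after depletion, and 74 and 96 after overexpression. For the difference 1094 genes were higher and 306 lower. With crossed numbers 6 and 5 members passed adjustment after depletion and overexpression, beside 90 and 32 of all genes. In the single fit on 8 libraries 8 and 0 members did, beside 368 and 2 of all genes.

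Of 275 recomputed log2 fold changes of named genes after depletion 242 kept direction and side of the threshold, 27 lost the call, 3 gained it and 3 reversed. All 3 reversals were of MIR6728, not called, at 0.0142 with a pseudocount of 0.1 and at 0.26 and 0.10 without the first siControl or the first siUPF1 library (range -0.302 to 0.26 with a library left out). Of 220 after overexpression 196 kept both and 24 lost the call. The cause of these shifts was not tested. FPKM without depth give no counting error, which limits what can be said of entries near 0.5.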
